A study of Mus musculus with 5 samples.

Results

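Members of the homeobox, Sox, Pax and forkhead families of transcription factors were followed in liver RNA of mice with a mutation in Pitx3, itself a homeobox gene. They were taken by gene symbol from the platform's probe-to-gene table, by prefixes that include Hoxa to Hoxd, Lhx, Nkx, Pitx, sine oculis, Dlx, Msx, Irx, Meis, Pbx, Onecut, Pax and Sox genes and Foxa to Foxs. The rule found 67 probes of 54 genes among 14030 named probes of 9930 genes. Of these, 2 genes with 1 probe each, Foxred1 and Foxred2, matched by their letters and code for oxidoreductases, so 65 probes of 52 genes are members of the families. No Pitx probe was found (0 probes), and no sine oculis, Dlx or Onecut gene carried a probe, so these were not analysed here.

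Each of the 5 arrays compared the liver of 1 male mouse, 17 weeks old and labelled Pitx3eyl-/-, with 1 RNA pool of wild-type mice. The mutant RNA carried the dye Cy5 on replicates 1, 2 and 4 and Cy3 on replicates 3 and 5. The pool held 4 mice per the sample labels and 6 per the labelling protocol. No wild-type animal was hybridised separately, so every error given here leaves out the spread between wild-type mice. The mutation is carried by the mouse line and was not made in hepatocytes alone. Values are the authors' log2 ratios, and a positive value is read as higher in the mutant. The direction is not stated and is only likely: the mutant is channel 1 in the labels, and codes for an unmeasurable spot changed sign between the dye orientations. The number of animals, 5, limits the precision of every value.

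Homeodomain, SOX, paired-box and forkhead proteins each bind short DNA sequences through the domain that names the family, and many set cell identity in the embryo. Hox genes lie in chromosomal clusters and mark position along the body axis. In the adult liver only some members are known to be active. Foxa proteins open chromatin at hepatocyte genes, Foxo proteins drive gluconeogenic genes when insulin is low, and Pbx proteins are cofactors of homeodomain factors. Other members, such as the early neural factors Sox2 and Pax3 or the thymus factor Foxn1, are known from tissues other than liver.

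The members were therefore divided by textbook knowledge. Hepatocyte or widely expressed genes, called liver-expressed below, were 11 genes with 16 probes (Foxa3, Foxk1, Foxk2, Foxn2, Foxo1, Foxo3, Foxo4, Foxp1, Foxp4, Pbx2 and Pbx3). Genes known from other cells of the liver, or from cells that pass through it, were 9 genes with 11 probes, among them the bile duct factor Sox9 and the stellate cell factor Lhx2. The remaining 32 genes with 38 probes are called other members. The list of liver-expressed genes held 22 names, and the 11 without a probe, among them Onecut1, Foxa1 and Foxa2, were not analysed here.

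As a check on the tissue, 16 probes of hepatocyte marker genes had a measured value in 86.2% of cases, against 71.9% of all named probes, and their median SD between arrays was 0.57 against 0.93. Markers were not all steady: the albumin gene Alb, averaged over its probes, ran from -0.34 to 0.08 over the 5 arrays, and the apolipoprotein gene Apoa1 from -3.75 to 1.10. The deposited ratios hold no spot intensity, so a marker's level itself cannot be given. In the gene-level fit described below, 3 of 10 tested hepatocyte markers were above 0 and 7 below, with a median of -0.10, and 2 (Tat at -0.78 ± 0.28 and Asl at -0.68 ± 0.27) were lower at an unadjusted p under 0.05. Over all 6706 genes of that fit, 3601 were above 0, 156 were higher and 108 lower at that threshold. Markers of other cell types were few: 4 bile duct, 3 endothelial, 5 stellate, 1 Kupffer cell, 4 lymphocyte, 4 erythroid and 1 pancreas gene were tested. Their medians were 0.49, -0.55, 0.02, -0.19, 0.76, 0.31 and 0.05, and the part of such cells in the members' values was not tested. In a bulk sample, fewer cells of a type and less RNA per cell cannot be told apart.

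The promoters of 2 members are shown because these genes were the steadiest of their groups among the members measured on all 5 arrays: Foxa3 among the liver-expressed, and Hoxb1, a hindbrain gene, among the others. Each window holds 300 bases around the start of the gene from RefSeq (GRCm38.p6). That of Foxa3 lies at chr7:19023490-19023789 on the minus strand, and that of Hoxb1 at chr11:96365508-96365807 on the plus strand. Capitals mark TATAAA in Foxa3, the letters of a TATA box, and TGATNNAT in Hoxb1, the letters that Hox and Pbx proteins bind together.
Foxa3: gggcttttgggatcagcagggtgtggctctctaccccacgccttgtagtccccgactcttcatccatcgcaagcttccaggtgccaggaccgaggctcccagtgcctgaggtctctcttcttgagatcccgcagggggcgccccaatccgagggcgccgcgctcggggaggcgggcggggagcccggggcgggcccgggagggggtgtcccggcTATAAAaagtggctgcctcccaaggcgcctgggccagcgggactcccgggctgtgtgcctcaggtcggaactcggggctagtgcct
Hoxb1: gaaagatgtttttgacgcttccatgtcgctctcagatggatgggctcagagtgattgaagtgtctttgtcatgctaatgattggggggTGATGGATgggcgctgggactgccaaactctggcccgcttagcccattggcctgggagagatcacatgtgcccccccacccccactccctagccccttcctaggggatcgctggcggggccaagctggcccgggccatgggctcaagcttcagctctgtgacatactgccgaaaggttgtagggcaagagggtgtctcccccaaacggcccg
The match in Foxa3 starts 36 bases before the gene's start and the match in Hoxb1 162 bases before it. Searched on both strands, TATAAA stood in 14.2% and TGATNNAT in 9.04% of the 27025 promoter windows of the table, counting the first window listed for each gene.

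Windows were found for 33 of the 52 member genes. They were richer in G and C than the windows of all genes, with a median of 60.3% against 52.7%, and held a median of 18 CpG dinucleotides against 7. For the 7 liver-expressed members with a window the medians were 70.3% and 31, and for the 20 other members 58.7% and 13.5. The forkhead letters TGTTTAC or TGTTTGC stood in 3 of the 33 windows (9.09%, against 8.34% of all windows), namely those of Foxp1, Nkx2-4 and Sox5. The SOX letters ACAATGG or ACAAAGG stood in 5 of 33 (15.2%, against 9.24%), all of them other members: Meis3, Nkx2-4, Sox2, Sox5 and Sox6. TAATTA, bound by many homeodomains, stood in 1 of 33, Foxn1 (3.03%, against 5.31%). The Hox and Pbx letters TGATNNAT stood in 1 of 33, Hoxb1 as printed above (3.03%, against 9.04%). Where a window holds both, the forkhead and SOX letters overlapped in Nkx2-4 and did not in Sox5. A match in these letters is a description and not a binding site.

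Coverage of the members on the arrays was uneven. Values were measured in 66.5% of cases for the 65 probes of the families, against 71.9% for all named probes, and the share lay below that of all named probes on 4 of the 5 arrays. It was 58.0% for the 10 Hox probes and 45% for the 4 Pax probes, against 71.7% for the 12 Sox probes and 69.2% for the 26 forkhead probes. Values on all 5 arrays existed for 17 probes of the families. The probe of Pax2, a kidney and eye factor, was not measured on any array.

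Liver-expressed and other members were compared by how often they were measured and how far their ratios lay from the array median. Values existed for 56 of 80 cases (70.0%) of liver-expressed probes, against 122 of 190 cases (64.2%) of other members, and the share was higher for the liver-expressed on 3 of 5 arrays. The difference averaged 5.79 percentage points with an SD of 11.0 between arrays. With the probes of a gene averaged first it was 18.7 points (81.8% against 63.1%). A gene then counts as measured where any of its probes is, which favours genes with several probes. The liver-expressed had 16 probes of 11 genes and the other members 38 of 32. The median size of the log2 ratio, after each array was centred on its median, was 0.87 for liver-expressed members, against 0.91 for other members. On single arrays the median size was larger for the liver-expressed on replicates 4 and 5 and smaller on replicates 1, 2 and 3, with a mean difference of 0.06 and an SD of 0.68 between arrays. Counted by probe, both differences were smaller than their spread over the arrays.

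The SD between arrays, which differ in animal and in dye orientation, was compared in the same way. Among probes measured on at least 4 arrays, the median SD was 1.18 for the 9 liver-expressed probes, against 0.91 for the 18 other members. The difference of 0.27 was 0.65 without replicate 2, 0.14 without replicate 5 and 0.11 with probes averaged per gene, while the 6 probes of other liver cell types had 0.78. Over all 7887 named probes measured that often it was 0.93. Transcripts that are abundant in liver stood elsewhere: the median size was 0.51 for hepatocyte markers and 0.51 for 98 probes of cytosolic ribosomal proteins. The median size over all members, 0.85, was larger than that of both classes on 5 of 5 arrays. Neuronal ion channels, with a median size of 0.81, and nuclear receptors, with 1.06, lay nearer to the members, and 68.0% and 66.9% of their values were measured.

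**Figure D1:**
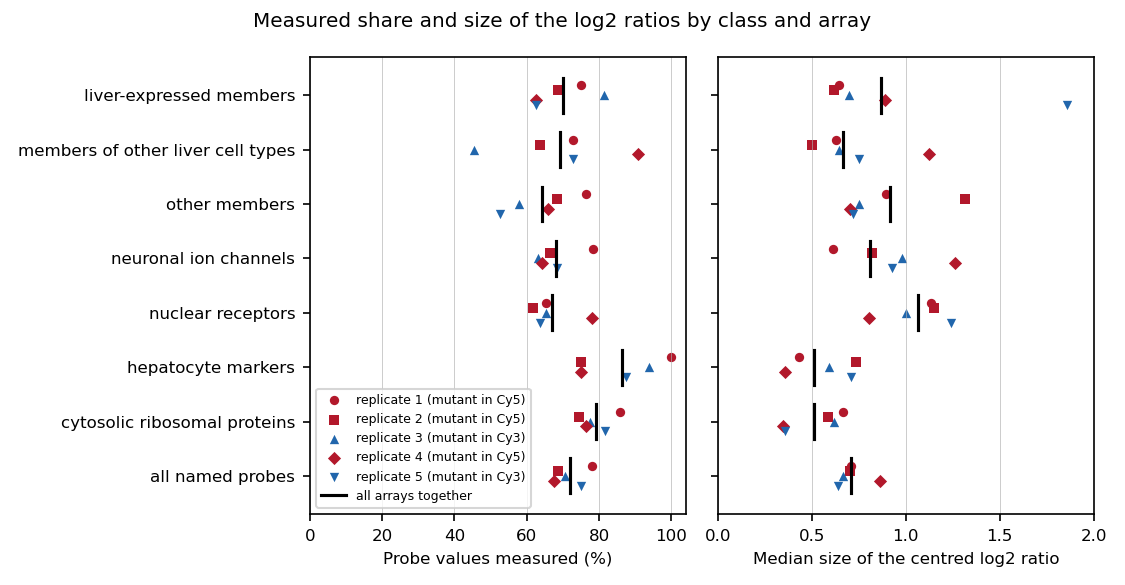
Share of probe values measured in percent (left) and median size of the log2 ratio after centring each array on its median (right), for members and comparison classes. Each point is 1 array, red where the mutant RNA was in Cy5 and blue where it was in Cy3, and the bar is the value over all arrays; the liver-expressed members lie at 70.0% and 0.87, near the other members at 64.2% and 0.91, while hepatocyte markers lie at 86.2% and 0.51.

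On each array many values lie exactly at 1 constant plus the log2 of a ratio of whole numbers up to 20, as ratios of very low signals do. Whether such values mark faint spots was not tested. They made up 26.8% of the measured values of liver-expressed members, 30.3% of other members, 29.0% of hepatocyte markers and 23.4% of all named probes, where part of the matches may be coincidence. Codes for an unmeasurable spot made up 2 of the members' values, both on replicate 5, on the probe of Nkx2-4 and on the Sox3 probe 20334, and were set to missing.

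No member passed the test of mutant livers against the pool. limma was fitted to 11300 probes with 4 or 5 values that covered either dye orientation. Of these, 0 had an adjusted p under 0.05 (0%), and the lowest adjusted p of a member was 0.999. At an unadjusted p under 0.05, 1 of 33 tested member probes was higher and 0 were lower, against 2.35% of all tested probes higher and 1.81% lower (4.16% in either direction). The median mutant coefficient, which weights both dye orientations equally, was 0.09 over the 33 member probes and 0.04 over all probes tested. By group it was 0.25 for 9 liver-expressed probes, 0.16 for 6 probes of other liver cell types and -0.01 for 18 other members. With the probes of a gene averaged first, the median was 0.04 for 8 liver-expressed genes (4 above and 4 below 0) and 0.02 for 6 genes of other liver cell types (3 above and 3 below). Among probes, values above 0 numbered 5 of 9, 4 of 6 and 9 of 18 in these groups, against 53.9% of all probes. Where a probe had 1 value with the mutant in Cy3, that array carries the same weight as all Cy5 arrays together.

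**Figure D2:**
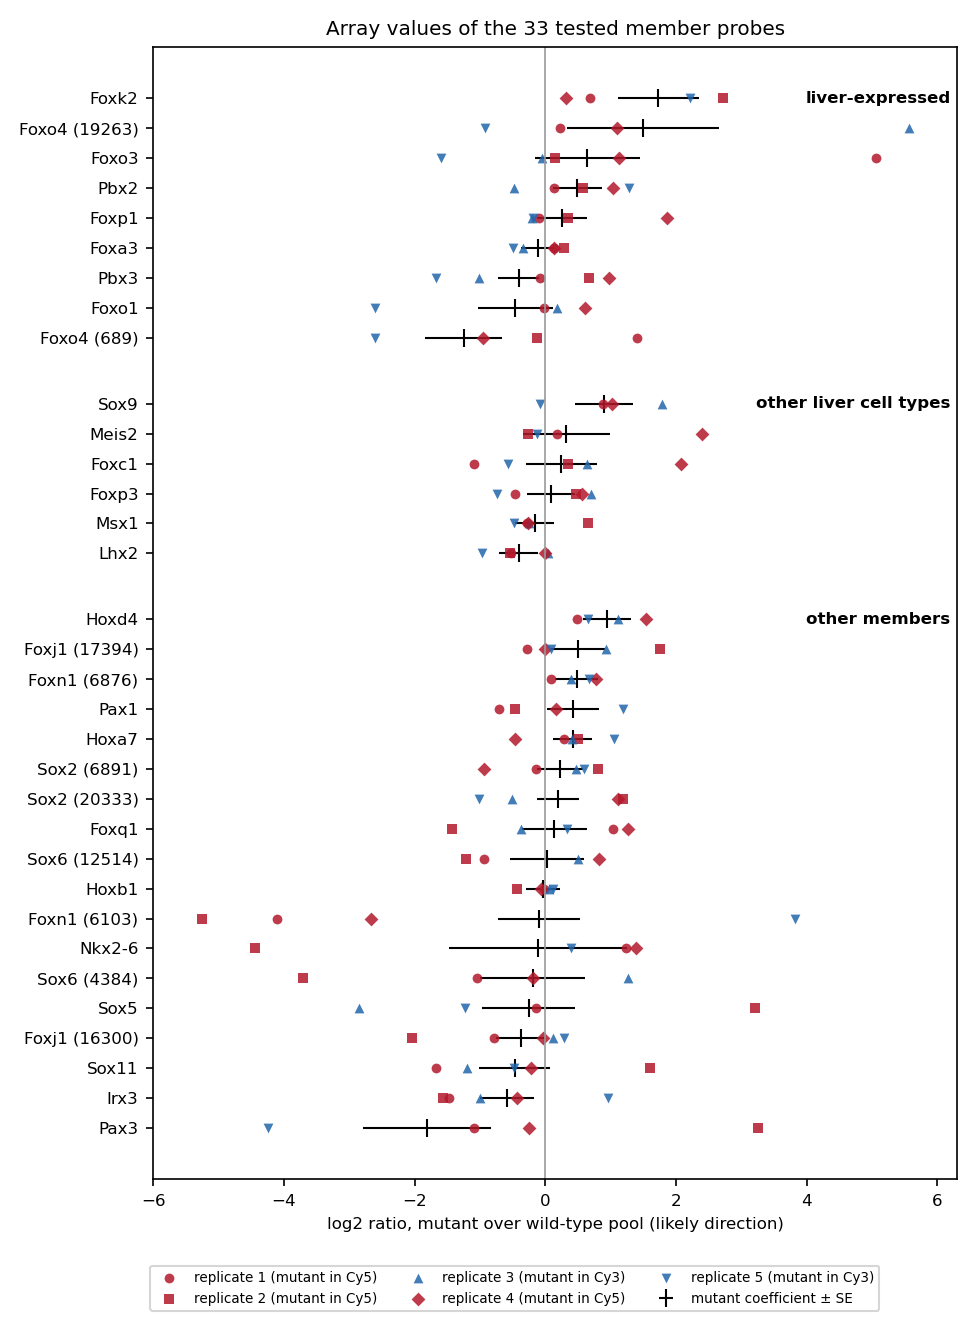
Log2 ratios of the 33 tested member probes on the 5 arrays (points, red where the mutant was in Cy5 and blue where it was in Cy3), with the mutant coefficient and its SE from limma (black). Rows are grouped as liver-expressed, other liver cell types and other members and sorted by the coefficient, with probe numbers where a gene has several probes; 0 of the 17 probes measured on all 5 arrays lie on 1 side of 0 throughout.

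Foxa3, a Foxa gene active in hepatocytes, had log2 ratios of 0.13, 0.28, -0.34, 0.14 and -0.49 on replicates 1 to 5. Its 3 arrays with the mutant in Cy5 lay above 0 and the 2 with Cy3 below, and their range was the narrowest of the 9 tested liver-expressed probes. The mutant coefficient was -0.12 ± 0.25 (SE, limma, 5 arrays) and the dye coefficient 0.30 ± 0.25. The SD of its values after centring, 0.45, was the fourth smallest of the 33 member probes, and 15.5% of all named probes measured on at least 4 arrays had a smaller one.

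Foxk2, a widely expressed forkhead repressor, was the 1 member with an unadjusted p under 0.05 in limma (0.0467, adjusted p 0.999). It had 0.69, 2.72, 0.32 and 2.22 on replicates 1, 2, 4 and 5 and no value on replicate 3. All 4 values were above 0, but they spread over more than 2 log2 units, and the coefficient of 1.73 ± 0.62 gives weight to replicate 5, its single array with the mutant in Cy3. Its unadjusted p was not under 0.05 with the arrays centred, or without replicate 1, 2 or 4. Its relative Foxk1 was measured on replicate 2 alone, at -2.92.

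Foxo genes, which carry the response to insulin and to oxidative stress, did not share a direction. Foxo1 had -0.01, 0.18, 0.61 and -2.61 on replicates 1, 3, 4 and 5, with a coefficient of -0.46 ± 0.58 that was 0.24 without replicate 5. Foxo3 probe 16176 had 5.06, 0.15, -0.06, 1.13 and -1.59 on replicates 1 to 5, with a coefficient of 0.64 ± 0.80 that was -0.09 without replicate 1. Each value of these 2 genes was thus led by a single array.

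Foxo4 was measured by 2 probes whose coefficients had opposite signs, 1.49 ± 1.16 for probe 19263 and -1.25 ± 0.59 for probe 689. Probe 19263 had 0.23, 5.57, 1.10 and -0.92 on replicates 1, 3, 4 and 5, and its coefficient was -0.13 without replicate 3. Probe 689 had 1.40, -0.12, -0.95 and -2.60 on replicates 1, 2, 4 and 5. On the 3 arrays that measured both probes the values differed by 1.17 to 2.05. The remaining 2 Foxo3 probes had values on 2 and 3 arrays and were not tested. Probe 3794 had the opposite sign to Foxo3 probe 16176 on all 3 shared arrays. The values differed by 1.51 to 9.36, most on replicate 1, the array that led the coefficient of probe 16176. Probe 6246 had the same sign as probe 16176 on the 2 arrays they shared. With the probes of the gene averaged, the Foxo3 coefficient was -0.24 ± 0.33.

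Foxp1, a repressor of the forkhead family known from lymphocytes and many other tissues, had -0.10, 0.35, -0.20, 1.85 and -0.19 on replicates 1 to 5, with a coefficient of 0.25 ± 0.38. Replicate 4 stood apart, and without it the coefficient was -0.03. Foxp4 had 2 probes with 2 values each, between -2.15 and -0.06, and Foxn2 had 3.47, -0.70 and 2.43 on replicates 2, 3 and 5. Neither was tested.

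The Pbx cofactors differed in sign. Pbx2 probe 17948 had 0.14, 0.58, -0.48, 1.03 and 1.27 on replicates 1 to 5, with a coefficient of 0.49 ± 0.38. Pbx3 had -0.08, 0.66, -1.01, 0.97 and -1.67, with a coefficient of -0.41 ± 0.31. Its values with the mutant in Cy3 were both under -1 and those in Cy5 were all above -0.1, and its dye coefficient was 0.93 ± 0.31 (limma unadjusted p 0.0282, adjusted p 0.587). The other Pbx2 probe had -3.51 and -0.40 on 2 arrays.

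Among factors of other liver cells, Sox9 probe 18047 had 0.88, 1.79, 1.02 and -0.08 on replicates 1, 3, 4 and 5, with a coefficient of 0.90 ± 0.45. Its other probe had -2.12, -1.39 and 3.26 on replicates 1, 4 and 5, so on all 3 shared arrays the signs were opposite. The bile duct list holds Sox9 itself, and its 4 tested genes, all above 0 (Cldn7 at 0.0005), are therefore no separate measure of such cells. Lhx2, which restrains stellate cell activation, had -0.52, -0.54, 0.05, -0.01 and -0.97 on replicates 1 to 5, with a coefficient of -0.41 ± 0.30. Its values were at or below 0.05 on every array and were among the steadiest, with an SD of 0.48.

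Msx1, a homeobox gene of limb and tooth development, had 0.65 on replicate 2 and -0.47 to -0.25 on the others, with a coefficient of -0.16 ± 0.30. Foxp3, the factor of regulatory T cells, ran from -0.74 to 0.70 with a coefficient of 0.09 ± 0.36, while 4 of 4 tested lymphocyte markers were above 0, with a median of 0.76 and 1 (Cd8a) at an unadjusted p under 0.05, and 4 of 4 erythroid markers were above 0 too, against 3601 of all 6706 genes. Foxc1, a factor of eye and vessel development, ran from -1.08 to 2.08 with a coefficient of 0.24 ± 0.54. Meis2 probe 18059 had 2.40 on replicate 4 and -0.26 to 0.18 on 3 others, with a coefficient of 0.32 ± 0.67. Meis2 probe 20314 had 1.81 and -3.695 on replicates 1 and 4 and was not tested. The lowest unadjusted p of these 4 in limma was 0.604, for Msx1 (adjusted p 0.999).

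The 3 tested Hox probes all had narrow values, with an SD after centring between 0.22 and 0.53. Hoxb1 had -0.01, -0.43, 0.06, -0.07 and 0.12 on replicates 1 to 5, and a coefficient of -0.04 ± 0.26, and 1.66% of named probes had a smaller SD. Hoxd4 had 0.48, 1.12, 1.54 and 0.66 on replicates 1, 3, 4 and 5, all above 0 in both dye orientations, with a coefficient of 0.95 ± 0.37 (limma unadjusted p 0.0573, adjusted p 0.999). Hoxa7 had 0.28, 0.50, 0.42, -0.46 and 1.05 on replicates 1 to 5, with a coefficient of 0.42 ± 0.30. Simple ratios of whole numbers, as described above, made up 2 of the 4 values of Hoxd4, 2 of the 5 of Hoxb1 and 0 of those of Hoxa7. Hoxd4 and Hoxb1 therefore had no fit with simple ratios left out. The other 7 Hox probes had values on at most 3 arrays and were not tested.

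All values measured had 1 sign for 3 of the 16 tested member probes with 4 values, all above 0: Foxk2, Hoxd4 and Foxn1 probe 6876. Over all probes tested on 4 arrays the share was 10.5%. For members measured on all 5 arrays the count was 0 of 17, against 5.99% of all such probes (3.65% above and 2.34% below 0).

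Foxn1, the factor of thymus epithelium, gave both the smallest and the largest SD after centring of all 33 member probes, though Hoxb1 had the smaller SD before centring. Probe 6876 had 0.09, 0.39, 0.77 and 0.66 on replicates 1, 3, 4 and 5, with a coefficient of 0.48 ± 0.33 and an SD after centring of 0.16. Probe 6103 had -4.11, -5.26, -2.67 and 3.82 on replicates 1, 2, 4 and 5, so the 3 values in Cy5 were below 0 and the single one in Cy3 was above it. Its SD was 3.91, its mutant coefficient -0.10 ± 0.62 and its dye coefficient -3.92 ± 0.62. The dye coefficient had an unadjusted p of 0.00270 and an adjusted p of 0.429 in limma. That is also the lowest adjusted p for dye over all 11300 probes. The adjustment gave this value to several probes alike, so it does not rank this probe first.

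Among Pax genes, Pax3 had -1.08, 3.25, -0.25 and -4.25 on replicates 1, 2, 4 and 5, with a coefficient of -1.81 ± 0.98 and a dye coefficient of 2.44 ± 0.98. Pax1, a factor of the vertebral column and thymus, had -0.70, -0.46, 0.16 and 1.19 on the same arrays, with a coefficient of 0.43 ± 0.40. Pax6 was measured on replicate 4 alone, at 0.46. That value is the constant of the array, so its sign is that of the constant. The values of Pax3 thus rest on single arrays in both directions. All 4 values of Pax3 lie at simple ratios of whole numbers, as described above, and so does 1 of the 4 values of Pax1. Pax3 therefore had no fit with simple ratios left out.

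Sox genes did not share a direction either. Sox2, a factor of stem cells and early neural tissue, was near 0 in both tested probes, at 0.22 ± 0.35 for probe 6891 and 0.20 ± 0.32 for probe 20333. On the 4 arrays with both, the probes had the same sign on 1. Probe 20333 had 1.197 and 1.12 with the mutant in Cy5 against -0.51 and -1.01 in Cy3, so its orientations did not overlap, and its dye coefficient was 0.96 ± 0.32 (limma unadjusted p 0.0370, adjusted p 0.627).

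Sox5, which acts with Sox6 in cartilage, had -0.14, 3.21, -2.85 and -1.23 on replicates 1, 2, 3 and 5, with a coefficient of -0.25 ± 0.71 and a dye coefficient of 1.79 ± 0.71. Sox6 had coefficients of -0.19 ± 0.81 and 0.03 ± 0.56 in its 2 probes, and the first had a dye coefficient of -1.45 ± 0.81. Sox11, a neural factor, had -1.68, 1.60, -1.20, -0.22 and -0.48 on replicates 1 to 5, with a coefficient of -0.47 ± 0.54.

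Among the remaining tested members, Irx3, an Iroquois factor, had -1.47, -1.57, -0.99, -0.43 and 0.96 on replicates 1 to 5, so 4 of 5 arrays were below 0, with a coefficient of -0.59 ± 0.41. Foxj1 is the factor of motile cilia, and its 3 probes gave 2 fits. Probe 17394 had -0.28, 1.75, 0.93, -0.01 and 0.09 on replicates 1 to 5, with a coefficient of 0.50 ± 0.42. Probe 16300 had -0.79, -2.04, 0.11, -0.04 and 0.29, with a coefficient of -0.38 ± 0.38, so replicate 2 lay highest in the first and lowest in the second. Foxq1 ran from -1.42 to 1.27 with a coefficient of 0.14 ± 0.50. Nkx2-6, a heart and pharynx factor, had -4.44 on replicate 2 against 0.39 to 1.39 on 3 others, with a coefficient of -0.11 ± 1.36.

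The dye coefficient was often larger than the mutant coefficient. At an unadjusted p under 0.05, 2 member probes (Pbx3 and Sox2 probe 20333) were higher with the mutant in Cy5 and 1 (Foxn1 probe 6103) was lower, against 1.49% and 5.89% of all tested probes, or 7.38% in either direction. limma called 0 probes for the dye after adjustment. In absolute size the dye coefficient exceeded the mutant one for 21 of 33 member probes, and for 52.9% of all tested probes. It was larger for 6 of 9 liver-expressed, 3 of 6 other liver cell and 12 of 18 other members. Had the authors left the 2 swapped arrays unturned, the dye coefficient would be the mutant's, and under that reading 2 members would be higher and 1 lower at an unadjusted p under 0.05.

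**Figure D3:**
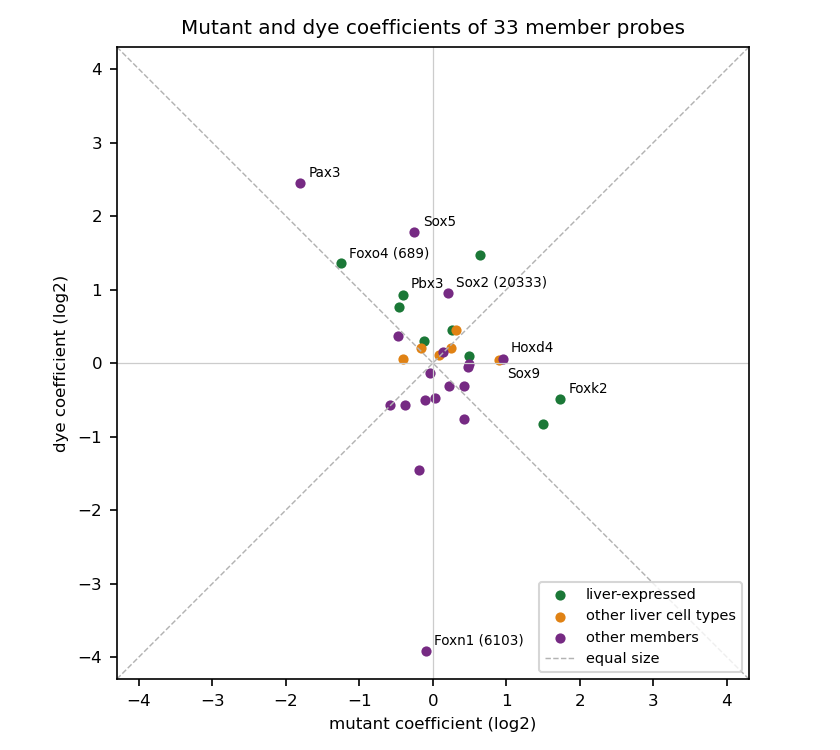
Dye coefficient (vertical) against mutant coefficient (horizontal) of the 33 tested member probes, both log2 values from limma, coloured by group. Broken lines mark equal size; 21 points lie nearer to the vertical axis than to the horizontal one, with Foxn1 probe 6103 at -0.10 and -3.92 farthest out, and probes named have an unadjusted p under 0.15 for the mutant or under 0.1 for the dye.

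Probes of the same gene often had different values. Among the members, 11 genes had 2 or more probes, which gave 15 pairs and 41 values on shared arrays. The 2 values had the same sign in 22 of these 41 (53.7%), against 51.4% over 5188 pairs of all named genes. These shares are near an even split of same and opposite signs. The median difference within a pair was 1.81 against 1.41. Both probes were tested for 5 genes, with median differences of 0.51 for Foxj1 (16300 and 17394, 5 arrays), 0.88 for Sox6 (4 arrays), 1.30 for Sox2 (4 arrays), 1.69 for Foxo4 (3 arrays) and 3.44 for Foxn1 (3 arrays). Members with a single probe have no such check.

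**Figure D4:**
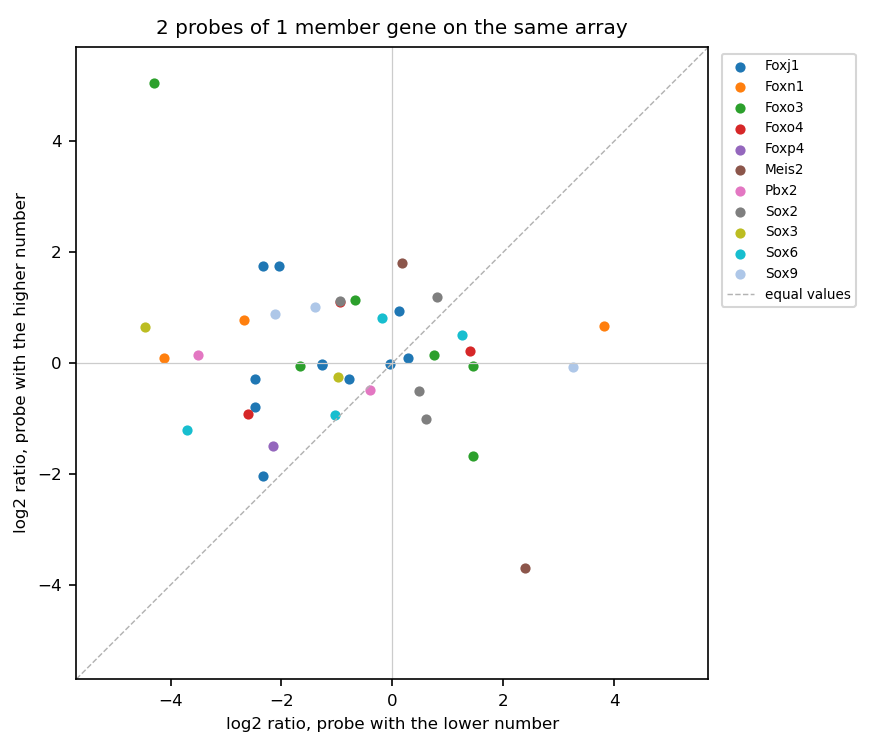
Log2 ratios of 2 probes of the same member gene on the same array, with the lower-numbered probe on the horizontal and the higher-numbered on the vertical axis, coloured by gene. Each of the 41 points is 1 array of 1 of the 15 pairs; the points do not gather along the broken line of equal values, and 22 of them have the same sign in both probes.

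Partners and targets of the members were examined at gene level, with probes of a gene averaged (6706 genes, 0 called, 3.94% with an unadjusted p under 0.05, median 0.03). Of 14 tested cofactors, 1 was higher and 0 were lower at an unadjusted p under 0.05, and their median was 0.01. The 1 was Ldb1, which bridges LIM homeodomain proteins such as Lhx2, with a coefficient of 2.16 ± 0.45. Ldb1 had 4.47 and 3.32 on replicates 2 and 4 (Cy5), against 1.18 and -0.34 on replicates 3 and 5 (Cy3). Its orientations did not overlap, and its dye coefficient was 1.74 ± 0.45 (limma unadjusted p 0.0145, adjusted p 0.557). Lmo4, a LIM-only protein that competes for Ldb1, had 1.04 ± 0.51.

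Liver transcription factors outside the families had a median of -0.24 over 13 tested genes, with 5 above and 8 below 0 and 0 at an unadjusted p under 0.05. The lowest p belonged to the clock output factor Tef, at -1.07 ± 0.43, and to the bile acid receptor Nr1h4, at 0.62 ± 0.40.

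Known Foxo targets had a median of 0.05 over 13 genes, with 7 above and 6 below 0 and 0 at an unadjusted p under 0.05. The lowest p belonged to Sod2, the mitochondrial superoxide dismutase, at -0.75 ± 0.37, and to the repressor Bcl6, at -0.98 ± 0.49. For all genes named from these lists limma's adjusted p of the mutant coefficient was 0.998.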

How the data were processed

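Liver RNA of 5 mutant mice was hybridised on 2-colour cDNA arrays against 1 wild-type pool, from 20 µg of total RNA, per the labels' protocols. The authors deposited log2 ratios per probe; that the scale is log2 was read from the values, and which scanner, background correction or normalization they used is not given in the sources used here. Array medians ran from -0.19 to 0.23. Values over 12 in absolute size (788, all at 1 repeated value per array) were set to missing as codes. Columns left unused numbered 0. Genes came from the platform's table, and RefSeq (GRCm38.p6) changed 0 member symbols. Names were checked only as a set, by the measured share and spread of the hepatocyte markers, and not for a single probe.

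With limma 3.58.1 in R 4.3.3, the mutant coefficient (the constant of the model) was fitted together with a dye term (+1 for Cy5, -1 for Cy3) by lmFit and eBayes on uncentred values, with Benjamini-Hochberg adjustment over all probes tested and calls at 0.05. The fit was tested on simulated data, with recovery of changes required only at noise far below that of these arrays. That check does not show how large a change could be detected here. Sizes and SDs by class used values centred on the array median, with no test. Arrays correlated between -0.26 and 0.11 over all probes (Pearson). Pairs in opposite dye orientations lay between -0.26 and -0.05, and pairs in the same orientation between -0.02 and 0.11. The cause was not tested. No label or value distinguishes a batch other than the dye orientation.

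The members and lists were chosen with earlier results of these data known. Named were the liver-expressed members, the 8 member probes with the lowest p of the mutant coefficient on each side of 0 and the 4 on each side of the dye coefficient. Members with 1 sign throughout, coded members, the 3 nearest and 3 farthest probe pairs and 2 genes per list were named too; 1 target list is not reported here. Alternatives changed the scaling, the filter, the dye term, the direction of the swapped arrays, the coded and simple-ratio values, the averaging of probes and the arrays used.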

Additional observations from a re-analysis of the deposited data

Results flagged for a closer look

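Values of single arrays stood far from the others in 4 of 42 sets of array values examined, where chance gives about 1 in 20. Foxp1 had 1.85 on replicate 4, against -0.20 to 0.35 on the other arrays. Meis2 probe 18059 had 2.40 on replicate 4, against -0.26 to 0.18 on 3 others, while Meis2 probe 20314 had -3.695 on replicate 4. Msx1 had 0.65 on replicate 2, against -0.47 to -0.25 on the others. The median size of the log2 ratio over liver-expressed members was 1.86 on replicate 5, against 0.62 to 0.89 on the other arrays, and rested on 10 measured probes there. The cause of these values was not tested.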

How the results depend on the processing

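No paired analysis was possible because the series holds 1 group, with every mouse set against the same pool. The ratios hold no signal over background, so a faint spot cannot be told from a bright one. With 5 animals, 1 or 2 arrays in the second dye orientation and no separate wild-type animals, an unadjusted p is a guide to rank at most.

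No probe was called in limma under any alternative, and the adjusted p of a member was never below 0.429, the value with the swapped arrays turned. The 1 member probe higher at an unadjusted p under 0.05 was Foxk2. It had no fit with values on all 5 arrays or simple ratios left out, where 17 and 16 member probes were tested. Its unadjusted p in limma was 0.0539 with arrays centred, 0.0534 with values on at least 3 arrays and 0.0565 with coded values kept. The count of member probes higher at an unadjusted p under 0.05, 1 as reported, was 0 in all these settings. It was 2 with no dye term and 2 with the swapped arrays turned, and 0 to 1 with an array left out (0 without replicate 1, 2 or 4). The count lower, 0 as reported, was 1 with the swapped arrays turned and 0 to 1 with an array left out (1 without replicate 1 or 2). Over all probes the counts higher and lower were 266 and 204 as reported, 551 and 245 without replicate 1, 243 and 352 without replicate 4, 168 and 666 with the swapped arrays turned, 156 and 108 of 6706 genes with probes averaged, 163 and 79 on all 5 arrays and 178 and 77 with simple ratios left out. The last 3 tested fewer features.

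The share of values measured, liver-expressed minus other members, was 5.79 percentage points as reported and 1.40 to 8.06 with an array left out. It was 18.7 with probes averaged per gene, where 1 measured probe is enough for a gene to count. The difference in median size was -0.05 as reported and -0.25 to 0.15 with an array left out, positive without replicate 2 alone. The median over the members was 0.09 as reported and -0.10 to 0.20 with an array left out, negative without replicate 3 or 4, and -0.07 with probes averaged per gene. The difference in median SD was 0.27 as reported, 0.14 to 0.65 with an array left out and 0.11 with probes averaged per gene.

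The sign of single probes turned in 30 of 251 values under other alternatives and 21 of 160 with an array left out. Foxred1 is counted here with the 33 tested member probes. In every fit made with an array left out, 18 of 34 probes kept their sign. For Foxk2, Foxo4 probe 689, Pax1 and Pax3, all among these 18, the single array with the mutant in Cy3 could not be left out. The fits include those without an array on which a probe had no value, where its coefficient is unchanged. With the swapped arrays turned the values were 1.36 (Foxo4 689), -0.83 (Foxo4 19263), -0.31 (Hoxa7), 0.93 (Pbx3), 2.44 (Pax3), -0.76 (Pax1), -0.048 (Foxn1 6876), -0.31 (Sox2 6891), 0.0528 (Lhx2), 0.30 (Foxa3), -0.47 (Sox6 12514), -0.49 (Foxk2), 0.76 (Foxo1), -0.0111 (Foxj1 17394), 0.37 (Sox11), 1.79 (Sox5), 0.20 (Msx1) and -2.17 (Foxred1). With probes averaged they were 1.08 (Foxo4), -0.71 (Foxn1), -0.0824 (Sox6), -0.24 (Foxo3), -0.24 (Foxj1) and -0.0526 (Meis2). Quantile normalization gave 0.0018 (Nkx2-6), -0.0286 (Foxp3) and -0.0399 (Sox2 20333), no dye term gave -0.72 (Foxred1) and -0.21 (Sox6 12514), and leaving out simple ratios gave -0.27 (Foxp3). With an array left out the ranges of the members that turned were -0.11 to 0.57 (Foxq1), -0.56 to 0.32 (Sox6 4384), -0.29 to 0.22 (Sox6 12514), -0.43 to 0.21 (Foxn1 6103), -0.16 to 0.63 (Foxc1), -0.002 to 0.43 (Sox2 6891), -0.61 to 0.85 (Nkx2-6), -0.034 to 0.46 (Foxp1), -0.0912 to 1.14 (Foxo3), -1.15 to 0.24 (Foxo1), -0.27 to 0.45 (Foxp3), -1.09 to 0.59 (Sox5), -0.0872 to 0.58 (Meis2), -0.13 to 3.12 (Foxo4 19263), -0.0805 to 0.0248 (Hoxb1) and -0.20 to 1.04 (Foxred1). The cause of these changes was not tested.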

Other observations

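Members measured on fewer than 4 arrays entered no test, and their values are given as measured. Hoxd8 was below 0 on all 3 arrays that measured it, at -1.27, -1.52 and -2.54 on replicates 1, 2 and 4, each with the mutant in Cy5. Sox3 probe 7823 was below 0 on 3 arrays, at -4.45, -0.98 and -1.10 on replicates 1, 3 and 4. Sox3 probe 20334 had 0.66 and -0.25 on replicates 1 and 3. Foxd2, a factor of kidney and other mesenchyme, was below 0 on 3 arrays, at -3.51, -0.335 and -2.99 on replicates 1, 2 and 3. Its value on replicate 2 is the constant of that array, so its sign there is that of the constant. Foxj1 probe 13084 was also below 0 on 3 arrays, at -2.47, -2.33 and -1.27 on replicates 1, 2 and 4, while both tested Foxj1 probes had values on either side of 0.

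Other Hox genes had mixed values. Hoxa9 had 1.25 and 0.65 on replicates 2 and 4, Hoxb2 had 0.48, -0.51 and 0.58 on replicates 2, 3 and 4, and Hoxd9 had 2.58 and -0.64 on replicates 4 and 5. Hoxa4 was measured on replicate 3 alone, at -3.47. Sox17, a factor of endothelium and endoderm, had 0.25 and -1.23 on replicates 2 and 4, and Foxm1, a factor of dividing cells, had 0.16 on replicate 5 alone.

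Foxred1, which matched the symbol rule by its letters, had -1.38, -4.49, 2.54 and 0.46 on replicates 1 to 4, and Foxred2 had -1.59, -0.88 and -0.81 on replicates 1, 3 and 5.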
